A study of Mus musculus with 10 samples.

Results

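Caveolae were examined through 10 genes that encode their coat, their neck and proteins tied to them, out of 27024 rows with a gene name: *Cav1*, *Cav2*, *Cavin1*, *Cavin2*, *Cavin3*, *Ehd2*, *Ehd4*, *Pacsin2*, *Plvap* and *Mfsd2a*. All 10 had a row. These genes were selected by name, with results of the comparison of StcE with saline already known, so their differences between the groups are a description and support nothing by themselves. RNA came from 10 samples of wild-type bEnd.3 cells, an immortalised mouse brain endothelial line. Saline was given to 5 samples (replicates 1, 2, 3, 4 and 5), and 5 nM StcE, a bacterial protease that cuts proteins densely decorated with mucin-type O-glycans, was given in growth medium to the other 5 (replicates 1, 2, 3, 5 and 6), each for 16 h. A cell line grown alone lacks the blood flow, pericytes and astrocytes of a brain vessel. The comparison asked how the transcripts of these cells differ between StcE and saline. The control was saline and not an inactive form of the enzyme, and cutting was not measured in these samples. Cutting of mucin domains therefore cannot be told apart from other effects of adding the protein. Expression is given as FPKM, the number of sequenced fragments per kilobase of exon after correction for how deeply each sample was read, and 21859342 to 33140289 fragments per sample were recovered from the values. Nothing in the labels says that the replicates were separate cultures, so p-values measure only the spread between these samples, which may be technical.

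Caveolae are flask-shaped pits of the plasma membrane that are abundant in endothelium. Caveolins insert into the inner leaflet and cavins assemble over them into a coat, while ATPases of the EHD family and F-BAR proteins act at the neck. In capillaries of the brain, caveolar vesicles are kept scarce, and the lipid transporter MFSD2A is known for holding down transport through them, whereas PLVAP forms the diaphragms of caveolae and fenestrae in leakier vessels.

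Promoter sequences of RefSeq (GRCm38.p6, from 250 bases before to 50 after a start of transcription) were found for 8 of the 10 genes, with 12 starts in all; *Cavin3* and *Plvap* had no entry. The 4 shown are those of the neighbouring caveolin genes *Cav1* and *Cav2*, of *Ehd4*, and of *Mfsd2a*, which stood higher after StcE. Each runs 5′ to 3′ on the strand of its gene: *Cav1* at chr6:17306085-17306384 and *Cav2* at chr6:17280935-17281234 on the plus strand, *Ehd4* at chr2:120154526-120154825 and *Mfsd2a* at chr4:122961139-122961438 on the minus strand. Capitals mark matches, searched for on both strands, to any of 4 motifs. These were TATAAA, named the TATA box, together with CCAAT itself, then GGGCGG, known as the GC box, and lastly CACGTG, known as an E box.
Cav1: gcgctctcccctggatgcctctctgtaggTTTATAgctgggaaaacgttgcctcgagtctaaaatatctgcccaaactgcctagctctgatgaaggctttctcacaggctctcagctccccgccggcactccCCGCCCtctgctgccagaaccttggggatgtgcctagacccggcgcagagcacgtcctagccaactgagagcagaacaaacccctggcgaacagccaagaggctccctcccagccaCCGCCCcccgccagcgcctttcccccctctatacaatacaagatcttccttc
Cav2: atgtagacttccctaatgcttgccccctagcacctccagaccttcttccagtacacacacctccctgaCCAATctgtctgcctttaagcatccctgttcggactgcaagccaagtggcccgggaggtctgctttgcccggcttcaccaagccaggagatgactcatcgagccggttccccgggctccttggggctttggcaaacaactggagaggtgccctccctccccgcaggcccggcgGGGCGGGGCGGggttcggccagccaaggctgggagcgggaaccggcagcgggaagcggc
Ehd4: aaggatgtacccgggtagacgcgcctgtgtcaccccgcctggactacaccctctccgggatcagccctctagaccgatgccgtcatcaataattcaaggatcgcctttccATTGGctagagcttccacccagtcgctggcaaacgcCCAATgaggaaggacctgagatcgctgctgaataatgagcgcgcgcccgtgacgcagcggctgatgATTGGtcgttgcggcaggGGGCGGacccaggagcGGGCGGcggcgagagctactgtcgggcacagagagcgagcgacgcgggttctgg
Mfsd2a: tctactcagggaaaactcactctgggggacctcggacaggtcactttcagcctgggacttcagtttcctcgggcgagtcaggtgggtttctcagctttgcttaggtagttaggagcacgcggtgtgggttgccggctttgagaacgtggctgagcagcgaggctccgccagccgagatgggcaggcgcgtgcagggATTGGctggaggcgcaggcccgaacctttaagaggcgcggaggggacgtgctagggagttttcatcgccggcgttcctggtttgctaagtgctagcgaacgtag
The *Cav1* start shown held 1 TATA box and 2 GC boxes, while its other start, which is not shown, held none of the 4 motifs; *Cav2* held 1 CCAAT box and 2 GC boxes that share a base. In *Ehd4* there were 3 CCAAT boxes and 2 GC boxes, and in *Mfsd2a* 1 CCAAT box. Of all 32851 promoters of the same length, 13.6% held the TATA box, 37.4% the CCAAT box, 35.7% the GC box and 7.15% the E box. Of the 12 promoters of the caveolar genes, 1 held the TATA box, 9 the CCAAT box, 7 the GC box and 0 the E box. The 2 of *Cavin1* lie 2 bases apart and hold the same matches, and the third start of *Pacsin2* held none. The share of G and C in these 12 ran from 43.3% to 67.0%, and its median over all promoters was 52.7%. The TATA match of *Cav1* lies on the opposite strand, toward the upstream end of the window. A match describes the letters in the window only.

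With saline, the order of the levels ran from *Plvap* at 1038.5 ± 48.8 FPKM (SD, n = 5), the 18th highest of all 27024 rows, through *Cav1* at 652 ± 11.9 (35th) and *Cavin1* at 379.9 ± 13.6, to *Ehd4* at 318 ± 10.2 and *Ehd2* at 292 ± 5.81. *Cavin3* (112 ± 1.45 FPKM), *Cav2* (110.3 ± 4.54) and *Cavin2* (94.4 ± 2.67) lay close together, and the saline samples of *Cavin3* and *Cav2* overlapped, so these neighbours in the order did not differ beyond their spread. *Pacsin2* stood at 29.4 ± 0.394 FPKM and *Mfsd2a* at 0.493 ± 0.118, the 12346th row. All other neighbours were apart in every saline sample. After StcE the samples of *Ehd4* and *Ehd2* overlapped too, and *Cav2* had a higher mean than *Cavin3*. Levels of different genes are compared here per kilobase, and rest on the exon length of each gene. The plot of levels shows the gap between *Pacsin2* and *Mfsd2a*.

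**Figure D1:**
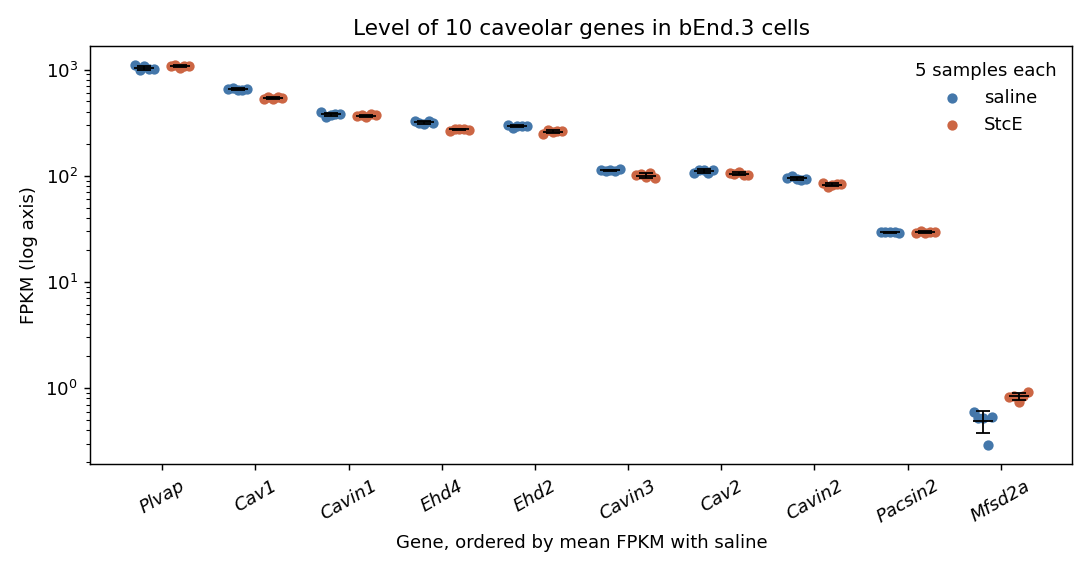
FPKM on a log axis for the 10 caveolar genes, ordered by their saline mean; points are samples (5 per group, saline blue, StcE orange), and bars are the mean ± SD. Saline means run from 1038.5 FPKM for *Plvap* to 0.493 for *Mfsd2a*, and *Cavin3* and *Cav2* overlap.

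Both caveolins had a lower mean after StcE, and the groups separated in *Cav1* alone of the pair. *Cav1* (chromosome 6, 17306335 to 17341452, plus strand) encodes the caveolin without which endothelial caveolae do not form. With saline its samples held 654, 671, 643, 642 and 652 FPKM in replicates 1, 2, 3, 4 and 5. With StcE they held 531, 555, 533, 547 and 541 FPKM in replicates 1, 2, 3, 5 and 6. Every StcE sample was below every saline sample, and the mean fell by 17.1%, from 652 ± 11.9 to 541 ± 9.74 FPKM (SD, n = 5 each), a log2 difference of -0.27 (standard error 0.0218). Between 43026 and 68508 fragments per sample lay behind *Cav1*. In bulk RNA, fewer cells that express a gene and less RNA of it per cell cannot be told apart.

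*Cav2* (chromosome 6, 17281185 to 17289115, plus strand) encodes the partner that joins CAV1 in mixed oligomers. Its samples held 105, 114, 112, 106 and 114 FPKM with saline and 106, 104, 109, 103 and 102 FPKM with StcE, in the same order of replicates. The groups overlapped, since saline replicates 1 and 4 lay within the range of the StcE samples. The log2 difference was -0.07 (standard error 0.0308, 95% interval -0.14 to -0.01 before adjustment), and it did not pass the threshold over all genes.

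Among the cavins, *Cavin2* and *Cavin3* fell and *Cavin1* did not pass the threshold. *Cavin1* (chromosome 11, 100956733 to 100970887, minus strand), the core coat protein that all caveolae need, held 396, 359, 377, 382 and 385 FPKM with saline and 363, 369, 357, 379 and 371 FPKM with StcE. Saline replicates 2 and 3 lay within the range of the StcE samples and the groups overlapped, with a log2 difference of -0.05 (95% interval -0.11 to 0.02). *Cavin2* (chromosome 1, 51289126 to 51302960, plus strand), which helps to bend the membrane, held 95.7, 98.4, 92.5, 91.9 and 93.7 FPKM with saline and 84.6, 78.2, 82.5, 82.9 and 83.1 FPKM with StcE. The groups did not overlap: StcE replicate 2 was the lowest sample, and the mean fell by 12.9% (log2 difference -0.20, standard error 0.0269).

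*Cavin3* (chromosome 7, 105480083 to 105482300, minus strand) encodes a cavin that binds protein kinase C and links the coat to signalling. Its samples held 112, 111, 112, 111 and 115 FPKM with saline and 102, 104, 96.4, 105 and 94.3 FPKM with StcE. StcE replicates 3 and 6 were the lowest, the other StcE samples lay nearer to saline, and the groups did not overlap; the mean fell by 10.6% (log2 difference -0.16, standard error 0.0308). Exons of *Gm45667* on the opposite strand cover 22.5% of the exons of *Cavin3*. The search for near-identical copies, run on both strands, found the same share there, which is this overlap and not a second copy. *Gm45667* itself averaged 0.0496 FPKM. The libraries kept strand, but whether the fragments were counted by strand is not given in the sources used here, so *Cavin3* is uncertain to that extent. None of the other 9 genes shared exons or near-identical stretches with another gene.

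Of the genes that act at the neck, *Ehd4* and *Ehd2* fell, and *Pacsin2* was nearly level. *Ehd2* (chromosome 7, 15946958 to 15967567, minus strand) encodes the ATPase that rings the neck and holds caveolae at the surface. It held 299, 284, 291, 297 and 291 FPKM with saline and 249.6, 268, 258, 266 and 262 FPKM with StcE. No StcE sample reached the lowest saline sample, replicate 2, and the mean fell by 10.8% (log2 difference -0.16, standard error 0.0248). *Ehd4* (chromosome 2, 120089175 to 120154606, minus strand), a related ATPase of endosomal and caveolar membranes, held 330.2, 312, 309, 328 and 311 FPKM with saline and 265, 273, 275, 277 and 272 FPKM with StcE. Saline replicates 1 and 4 were the highest, the StcE samples were tightly grouped below all saline samples, and the mean fell by 14.3% (log2 difference -0.22, standard error 0.0251). *Pacsin2* (chromosome 15, 83375607 to 83464606, minus strand), an F-BAR protein that shapes the neck, held 29.8, 29.7, 29.5, 29.4 and 28.8 FPKM with saline and 28.7, 30.1, 29.2, 29.5 and 29.3 FPKM with StcE. Its groups overlapped throughout, and its difference (-0.00378 on the log2 scale, 95% interval -0.05 to 0.04) took the opposite sign when samples were scaled by the upper quartile or by total fragments, and without saline replicate 1 or StcE replicate 1.

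*Plvap* (chromosome 8, 71497765 to 71511752, minus strand), the diaphragm protein, held 1105, 987, 1073, 1007 and 1020.4 FPKM with saline and 1075, 1096, 1039, 1084 and 1086 FPKM with StcE. Saline replicate 1 was the highest of all 10 samples and saline replicate 2 the lowest, so the groups overlapped. The mean was 1038.5 ± 48.8 FPKM under saline and 1076 ± 21.9 under StcE, a log2 difference of 0.05 (95% interval -0.02 to 0.12) that did not pass the threshold. *Plvap* was the only tested gene among the 9 with a higher mean after StcE, joined by *Pacsin2* in the 4 alternatives that turned its sign.

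*Mfsd2a* (chromosome 4, 122946850 to 122961188, minus strand) encodes the transporter of lysophosphatidylcholine that marks brain endothelium. Its depth was low, with 15 to 41 fragments per saline sample and 44 to 67 per StcE sample, and 3 fragments were worth 0.0381 to 0.0581 FPKM. Its samples held 0.599, 0.526, 0.517, 0.291 and 0.530 FPKM with saline and 0.831, 0.836, 0.743, 0.850 and 0.916 FPKM with StcE. Saline replicate 4 lay far below the other saline samples, and every StcE sample was above every saline sample. The means were 0.493 ± 0.118 and 0.835 ± 0.0617 FPKM, a ratio of 1.70. With a mean under 1 FPKM, *Mfsd2a* was not among the genes tested; of the 4962 genes with a mean FPKM from 0.1 to 1, 54 (1.09%) likewise had every StcE sample above every saline sample. In the nearest samples the exact Poisson 95% intervals overlapped, at 0.430 to 0.813 FPKM in saline replicate 1 and 0.564 to 0.961 in StcE replicate 3. Summed over the samples of a group, 146 of 122785895 fragments with saline and 273 of 137509167 with StcE were those of *Mfsd2a*. In the 3 alternatives that tested it, among them a minimum of 0.1 FPKM, the limma adjusted p was 0.0118 to 0.0277.

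**Figure D2:**
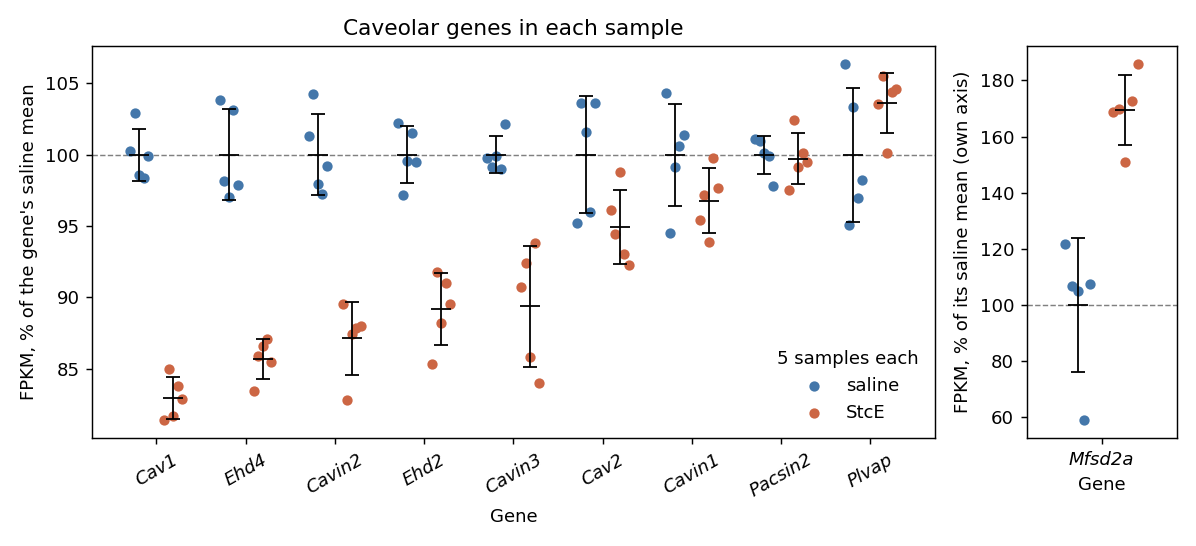
FPKM of each sample as a percent of the mean of the gene's saline samples, for the 9 tested genes (left) and *Mfsd2a* on an axis of its own (right); points are samples, 5 per group, bars are the mean ± SD and the dashed line is 100%. *Cav1*, *Ehd4*, *Cavin2*, *Ehd2* and *Cavin3* have every StcE sample below every saline sample, and *Pacsin2* overlaps throughout.

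In all, 9 of the 10 genes reached a mean of 1 FPKM and were tested within the fit over 11062 genes (limma on log2(FPKM + 1), threshold a Benjamini-Hochberg adjusted p of 0.05). Of these 9, 5 were lower past the threshold (*Cav1*, *Ehd4*, *Cavin2*, *Ehd2* and *Cavin3*, limma adjusted p from 1.4e-05 to 0.00626) and 0 were higher. Over all genes tested, 11.9% passed the threshold, 6.41% lower and 5.52% higher (709 and 611 genes); scaled by the upper quartile these were 639 and 653, and by total fragments 628 and 667. The same 5 genes were those with no overlap between groups, where 5.80% of all genes tested had every StcE sample below and 4.85% every StcE sample above. Since the genes were chosen with this contrast known, nothing is read from the counts. The median log2 difference was -0.16 over the 9 genes and -6.6e-04 over all genes tested. The 1320 genes past the threshold in all became 838 without saline replicate 1, 793 without StcE replicate 3 and 801 with no filter on low FPKM.

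Levels of partners within a sample are given here as ratios of FPKM (mean ± SD, n = 5 per group) with no test. *Cav1* stood to *Cav2* at 5.92 ± 0.221 under saline and 5.17 ± 0.206 under StcE, and to *Cavin1* at 1.72 ± 0.0863 under saline and 1.47 ± 0.0255 under StcE. The ratio of *Cavin1* to *Cavin2* was 4.03 ± 0.214 under saline and 4.47 ± 0.179 under StcE. For *Plvap* to *Cav1* it was 1.59 ± 0.0885 under saline and 1.99 ± 0.0292 under StcE. In these 4 ratios the groups did not overlap. Each of the 4 sets a gene whose groups were apart against one whose groups overlapped, and the pairs were chosen after the values were seen. How often other pairs of genes do the same was not computed, so nothing is read from this. The ratio of *Ehd4* to *Ehd2* was 1.09 ± 0.0209 under saline and 1.05 ± 0.0203 under StcE, and there the groups overlapped. Whether the difference of any gene exceeded that of its partner was not tested, since both were chosen with the contrast known.

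*Cav2* and *Cav1* lie next to each other on chromosome 6, with 17219 bases between the end of *Cav2* and the start of *Cav1*. The other protein-coding genes within 500000 bases, chosen after the values were seen, were *Tfec*, *Tes*, *Met*, *Capza2* and *St7*. In order along the chromosome, with the log2 difference and the limma adjusted p of each, they were *Tfec* (0.04, 0.563), *Tes* (-0.01, 0.820), *Met* (-0.11, 0.0651), *Capza2* (0.01, 0.868) and *St7* (0.05, 0.546). None of the 5 passed the threshold, and in each the groups overlapped. *Met*, which encodes the receptor of hepatocyte growth factor, had the lowest log2 difference of the 5; its means were 21.1 ± 0.770 FPKM with saline and 19.4 ± 0.886 with StcE (SD, n = 5 each).

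**Figure D3:**
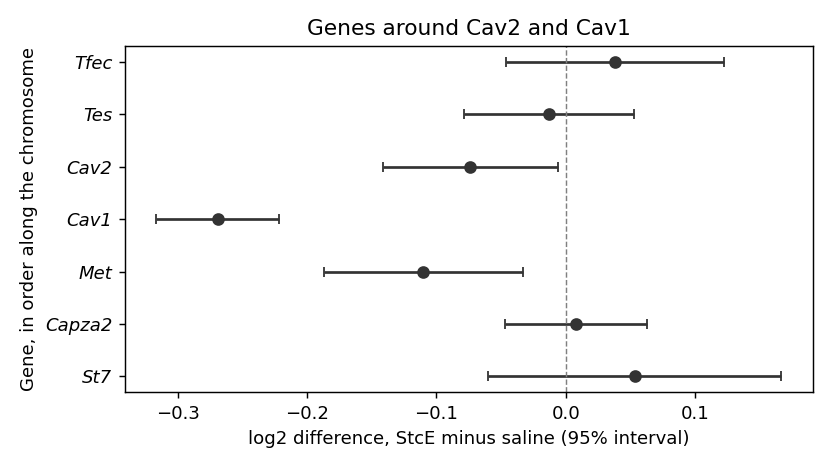
log2 difference (StcE minus saline) with its 95% interval for the 7 protein-coding genes within 500000 bases of *Cav2* and *Cav1*, in chromosome order from top to bottom; n = 5 per group. *Cav1* lies at -0.27, and the intervals, which are not adjusted for the number of genes, include 0 for *Tfec*, *Tes*, *Capza2* and *St7*.

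The genes whose profile over the 10 samples was most like that of *Cav1*, by the root mean square distance of log2(FPKM + 1) less the saline mean, were *Cdh26* (0.0360), *Anxa6* (0.0384), *Hacd4* (0.0391), *Ly6e* (0.0395) and *Nfix* (0.0407), against a median distance of 0.204 over all genes. The distance includes the StcE samples, so the choice itself fixes the direction of these genes. *Anxa6*, an annexin that binds membranes through calcium, had 30.1 FPKM with saline and 24.7 with StcE, and *Ly6e*, a lipid-anchored surface protein, had 66.6 and 55.5. For *Plvap* the nearest were *Csnk1g2* (0.0263), *Shb* (0.0264), *Ddx54* (0.0280), *Casp8ap2* (0.0295) and *Minpp1* (0.0322), against a median of 0.0984.

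Partner genes stand in 5 lists by function that leave out the caveolar genes themselves. Of the 80 listed, 63 were tested and 15 of these passed the threshold, where over all genes tested 11.9% did, 6.41% lower and 5.52% higher. Among 16 partners that shape caveolae or cut them off, such as dynamins, 11 were tested: 1 rose, 0 fell and the median log2 difference was -0.03. The gene that rose was *Snx9* (81.4 ± 2.86 FPKM under saline, 89.2 ± 2.28 under StcE, log2 difference 0.13, standard error 0.0279, limma adjusted p = 0.0120), which encodes a sorting nexin that binds dynamin; its groups overlapped. The muscle forms were missing or near 0: *Cav3* had no row, and *Cavin4* averaged 0.0136 FPKM.

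Among 19 proteins of caveolar membranes and rafts, 14 were tested: 1 rose, 5 fell and the median was -0.03. Over all genes tested, 5.52% were higher and 6.41% lower past the threshold. The most abundant was *Gnai2* (388 ± 8.43 FPKM under saline, 362 ± 3.15 under StcE, log2 difference -0.10, standard error 0.0207, limma adjusted p = 0.00878), an inhibitory G protein subunit. A fall was also found for *Bmpr2* (8.51 ± 0.353 FPKM under saline, 7.23 ± 0.753 under StcE, log2 difference -0.21, standard error 0.0580, limma adjusted p = 0.0367), a receptor of bone morphogenetic proteins whose groups overlapped, and for *Gnaq* (39.1 ± 1.10 FPKM under saline, 35.3 ± 1.96 under StcE, log2 difference -0.14, standard error 0.0367, limma adjusted p = 0.0279), the subunit that couples receptors to phospholipase C. *S1pr1*, the sphingosine phosphate receptor, fell as well (log2 difference -0.09, limma adjusted p = 0.0340). *Scarb1*, the receptor of high-density lipoprotein, rose (log2 difference 0.12, limma adjusted p = 0.0232). *Nos3*, the endothelial nitric oxide synthase that CAV1 binds, had 287 ± 13.5 FPKM with saline and 308 ± 6.0 with StcE (limma adjusted p = 0.0628); it was chosen after its values were seen.

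In vesicle docking and fusion, 13 of 14 genes were tested, 1 rose and 1 fell, with a median of 4.6e-04. *Vamp3*, a SNARE of recycling vesicles, rose (log2 difference 0.11, limma adjusted p = 0.0280) and *Stx6*, a SNARE of the trans-Golgi network, fell (-0.11, limma adjusted p = 0.0414); *Napa*, which recycles SNAREs, was the most abundant at 38.4 FPKM. For the clathrin coat and its adaptor, the route beside caveolae, 19 of 21 were tested, 1 rose and 2 fell, with a median of -0.03. Beside both lists stand 5.52% higher and 6.41% lower past the threshold over all genes tested. *Bin1* rose (log2 difference 0.12, limma adjusted p = 0.0268), while *Hip1* (-0.17, limma adjusted p = 0.0256) and *Ap2b1* (-0.12, limma adjusted p = 0.0215) fell. *Clta*, a clathrin light chain and the most abundant at 145 FPKM, had a log2 difference of 0.06 (limma adjusted p = 0.263).

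Of 10 genes on the lipid route of MFSD2A, 6 were tested, 3 rose and 0 fell, with a median of 0.08, where 5.52% of all genes tested were higher past the threshold. These were *Acsl3* (4.26 ± 0.354 FPKM under saline, 6.28 ± 0.408 under StcE, log2 difference 0.47, standard error 0.0532, limma adjusted p = 2.6e-04) and *Acsl4* (23.0 ± 0.730 FPKM under saline, 28.5 ± 0.452 under StcE, log2 difference 0.30, standard error 0.0252, limma adjusted p = 1.9e-05), which activate long-chain fatty acids to their coenzyme A esters, and *Spns2* (118 ± 5.01 FPKM under saline, 130.1 ± 1.73 under StcE, log2 difference 0.14, standard error 0.0289, limma adjusted p = 0.00936), the exporter of sphingosine phosphate and the most abundant of the list. The groups did not overlap in any of the 3, where 4.85% of all genes tested had every StcE sample above. The 15 partner genes past the threshold became 6 without saline replicate 1, 8 without saline replicate 3, 9 without saline replicate 4, 8 without StcE replicate 3 and 7 with no filter on low FPKM.

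**Figure D4:**
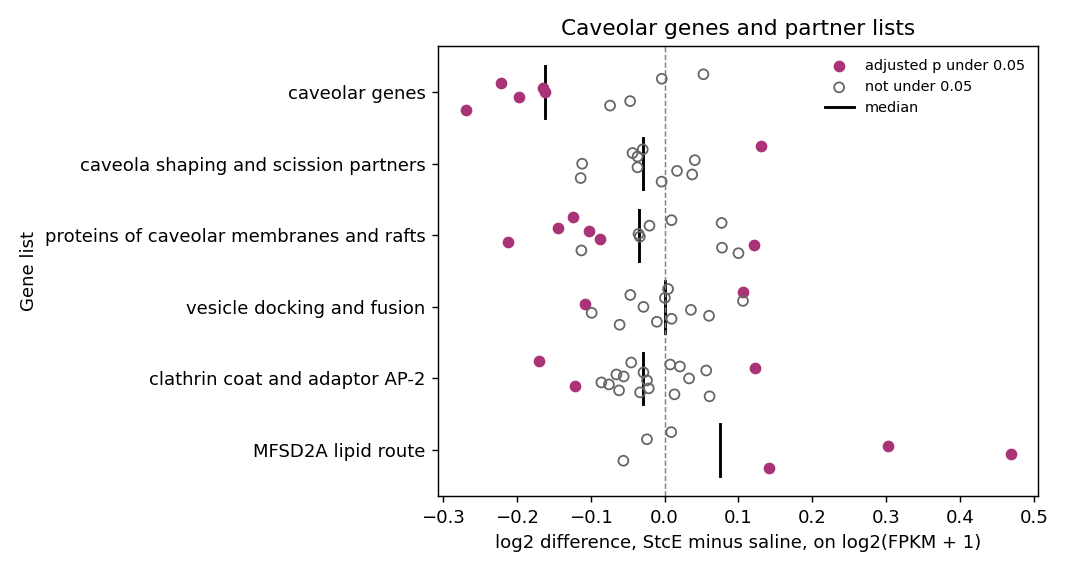
log2 difference (StcE minus saline) of each tested gene in the caveolar genes (9 of 10 tested) and in the 5 partner lists; filled points have a limma adjusted p under 0.05, open points do not, and the black line is the median. The median is -0.16 for the caveolar genes and 0.08 for the lipid route of MFSD2A.

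The endothelial label was compared with marker genes. All 11 endothelial markers were tested, led by *Cdh5* at 486 FPKM and *Cldn5* at 313, and *Vwf* was lowest at 1.28. Of these 11, 5 fell (*Tek*, *Flt1*, *Erg*, *Pecam1* and *Esam*), 1 rose (*Egfl7*) and the median log2 difference was -0.11; over all genes tested 6.41% were lower and 5.52% higher past the threshold. *Cdh5* (log2 difference -0.14, limma adjusted p = 0.0515) and *Cd34* (-0.07, limma adjusted p = 0.0526) did not pass it, and both had every StcE sample below every saline sample. The groups overlapped in *Pecam1*, *Erg* and *Egfl7*. The summed FPKM of all 11 was 1833 to 1949 over the saline samples and 1775 to 1852 over the StcE samples, so these sums overlapped; the part of these markers in the fall of the caveolar genes was not tested. Markers of other cells were low. The most abundant were *Acta2* of mural cells at 3.14 FPKM, *Pdgfra* of fibroblasts at 1.24, *Fabp4* of adipocytes at 0.351, *Krt18* of epithelium at 0.159, *Mog* of oligodendrocytes at 0.138, *Csf1r* of microglia at 0.0528, *Gfap* of astrocytes at 0.050 and *Snap25* of neurons at 0.00101. *Acta2* and *Pdgfra* did not pass the threshold, and the others lay under the FPKM minimum. *Rgs5*, *Lum*, *Myod1*, *Myog*, *P2ry12* and *Cdh1* had no row. The summed FPKM of the 13 mitochondrially encoded protein genes was 6881 to 7644 with saline and 7188 to 8063 with StcE, so these groups overlapped too.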

How the data were processed

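Poly-adenylated RNA of 10 bEnd.3 samples was sequenced as paired, strand-specific libraries. Per the labels, the submitters' processing notes name HISAT2 2.0.5, featureCounts 1.5.0-p3 and DESeq2 1.32.0 and the mouse build mm10 (GRCm38); the annotation release is not given in the sources used here. The authors deposited FPKM with a column for each sample; 27024 rows named a gene, and another 22874 held nothing. Multiplied by GENCODE vM21 exon length, 96.6% of values above 0 were whole fragments within 0.05 of a fragment, and each sample's scale followed its median-of-ratios size factor within 0.0441%. The recovered depth was 21859342 to 33140289 fragments; intervals cover counting error only.

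The 11062 genes that averaged 1 FPKM or more were compared by limma 3.58.1 (R 4.3.3) after transformation to log2(FPKM + 1), with condition in the model, a trended eBayes step and Benjamini-Hochberg adjustment. The deposited unit is FPKM, and limma on that unit was chosen in place of the authors' count model, DESeq2, which was not run. The fragments recovered from FPKM were fitted by voom as an alternative. Log2 differences on this scale understate the change of low genes. The procedure was tested on simulated data. Replicates differed by more than sampling noise. Near-identical copies (at least 95% identity over 150 bases) were searched with BLAST 2.17.0. The members and lists were chosen with earlier results of these data known. Named genes were taken from the caveolar genes, in each partner list the most abundant gene and up to 4 past the threshold with the largest difference, the 5 most similar profiles to *Cav1* and *Plvap*, and of each marker list the most abundant; other genes named in the text, the promoter motifs and the ratios between genes were chosen after the values were seen. Alternatives were another pseudocount, filter, scaling, variance model and test, the replicate number as a block, and each sample left out.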

Additional observations from a re-analysis of the deposited data

Results flagged for a closer look

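In 5 of the 94 groups of 5 samples examined over 47 genes, a sample lay far from the others of its group; chance alone gives about 1 in 20, or 4.70 of 94. *Mfsd2a* was 0.291 FPKM in saline replicate 4, while the remaining saline samples spanned 0.517 to 0.599. *Clta* was 159 FPKM in StcE replicate 1, while the remaining StcE samples spanned 144 to 148. *Ap2b1* was 32.9 FPKM in saline replicate 5, against 34.0 to 34.4, and *Casp8ap2* was 6.49 FPKM in saline replicate 1, against 5.81 to 5.99. *Cavin4* was 0.0702 FPKM in StcE replicate 3 and listed at 0 in the other StcE samples, where any value above 0 would be flagged.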

How the results depend on the processing

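Over 22 alternatives, *Cav1*, *Cavin2* and *Ehd4* stayed lower past the threshold in all, and *Cavin3* and *Ehd2* in 21; *Cav2*, *Cavin1*, *Pacsin2* and *Plvap* passed in none. With samples left out in turn, the log2 difference of *Cav1* ranged from -0.28 to -0.26 and that of *Cavin3* from -0.18 to -0.14. *Mfsd2a* passed in the 3 alternatives that tested it, with limma adjusted p of 0.0118 to 0.0277; the voom fit on genes with at least 50 fragments, chosen after seeing the data, gave a log2 difference of 0.76, and the other 2 gave 0.30 on log2(FPKM + 1), a scale that shrinks low values.

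Replicate numbers did not pair the samples: deviations of same-numbered samples correlated at -0.0966, -0.0225, -0.0265 and 0.0538, and no saline sample was most like its own number. With the replicate block over 8 samples, 349 genes passed (162 lower, 187 higher), 3 of them caveolar and 3 among the partners; *Cavin3* and *Ehd2* had limma adjusted p of 0.0653 and 0.0745, against 0.00206 to 0.0217 and 1.1e-04 to 0.0109 over the other alternatives. Their log2 differences were -0.14 and -0.16 over these 8 samples, with or without the block, and -0.16 for both over all 10. Without the block, the same 8 samples gave 885 genes, 452 of them lower, and 5 caveolar genes. With no filter, 801 genes passed (409 lower, 392 higher) and 7 partners. Leaving out each sample gave 793 to 1255 genes (409 to 667 lower, 384 to 588 higher), 5 caveolar genes and 6 to 15 partners. The cause of these moves was not tested. At this depth *Mfsd2a* rests on 15 to 67 fragments per sample.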
